A study of Caenorhabditis elegans with 2 samples.

Results

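A set of 34 protein-coding genes of the nerve terminal was followed through 2 libraries of RNA 3' ends from nuclei of the nematode Caenorhabditis elegans. The set was given as a list of neuronal synapse and transmitter genes. It was taken by gene symbol, and all 34 symbols were found among the 19973 annotated protein-coding genes. Of these members, 32 had at least 1 read and 21 had at least 20 reads over both libraries, the minimum for a comparison, which 10818 genes met in all.

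Neurons signal by releasing the contents of vesicles. Synaptic vesicles carry small transmitters such as acetylcholine, glutamate, GABA and the monoamines, while dense-core vesicles carry neuropeptides cut from larger precursors. Fusion is driven by SNARE proteins on the vesicle and on the plasma membrane, helped by priming factors and held back or timed by complexin and synaptotagmin. Parts of this machinery also serve secretion outside the nervous system, whereas the enzymes and transporters of single transmitters each mark a subset of neurons.

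Both libraries came from strain JM149, grown as mixed-stage liquid cultures at 25 °C and strained to enrich adults. The input library was made from input nuclei labelled as mixed tissues with total RNA as the molecule, and the sorted library from sorted nuclei labelled as intestine with nuclear RNA. The labels do not say which cells carried a fluorescent mark, and the difference in the molecule label cannot be told apart from the comparison. Each group held 1 library, so there is no replicate check and no test between groups.

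The input library held 9243831 reads and the sorted library 4709432, of which 9094297 and 4571685 were assigned to protein-coding genes. Levels are given as RPM, reads per 1000000 gene-assigned reads. Because a transcript gives reads from its 3' end alone, RPM is not scaled by gene length. A single read was worth 0.110 RPM in input and 0.219 RPM in sorted nuclei, and a count of 0 allows up to 3 reads, or 0.330 and 0.656 RPM. Ratios are sorted over input with an exact (Clopper-Pearson) 95% interval, and a gene was called when the bound nearest 1 passed 2-fold. Such intervals express the error of counting alone: copies made by PCR were not told apart by molecular identifiers, so reads are not independent molecules. In bulk samples such as these, fewer cells of a type and less RNA per cell cannot be told apart.

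The labelled tissues were compared with marker lists. These lists were chosen with earlier results of these data known, so they are not an independent check of the labels. Of 11 measured intestine markers, 8 were called higher and none lower in sorted nuclei, beside 13.5% and 4.1% of all measured genes. Their median log2 ratio was 1.67. The 3 with the most reads were not called. The intestinal actin gene act-5 had a ratio of 1.57 (1.55 to 1.59), while the yolk protein genes vit-6 and vit-2 lay below 1, at 0.759 (0.741 to 0.777) and 0.739 (0.720 to 0.758). Summed reads of markers of other tissues had ratios from 0.303 for sperm to 0.572 for body wall muscle, each with its whole interval under 1. Exceptions within those lists were called higher, among them the muscle myosin gene unc-54 at 2.67 (2.42 to 2.95). That excess was not seen near the annotated ends of unc-54, where 71 input but only 7 sorted reads fell within 24 nt. Its most-read position, upstream at -136 nt, had 288 input and 528 sorted reads. Which transcript gave the unc-54 reads was not tested.

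The neuronal genes were spread over both directions and most did not pass 2-fold. Among the 21 measured members, 1 was called higher in sorted nuclei, the vesicle SNARE gene snb-1, against a background of 13.5% of all measured genes. Likewise 1 was called lower, the complexin gene cpx-1, against a background of 4.1%. The other 19 were called in neither direction, and no member passed 4-fold, which 4.7% of all genes did upward and 0.305% downward. Ratios were above 1 in 11 members and below 1 in 10. Their median log2 ratio was 0.03, beside 0.04 over all measured genes.

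Summed over all 34 members, 4839 input and 2257 sorted reads gave 532 and 494 RPM, a ratio of 0.928 (0.882 to 0.976). That sum rested on a few genes. Without snb-1, left out after its values were seen, the remaining reads were 4080 and 1322, with a ratio of 0.645 (0.605 to 0.686). Without egl-21, the member with the most reads, the ratio was 1.09 (1.03 to 1.16), or 0.989 under TMM scaling (a scaling that trims genes of extreme ratio), and without both it was 0.649 (0.598 to 0.705). The snb-1 gene took 15.7% (14.7 to 16.7) of the members' input reads and 41.4% (39.4 to 43.5) of their sorted reads.

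**Figure D1:**
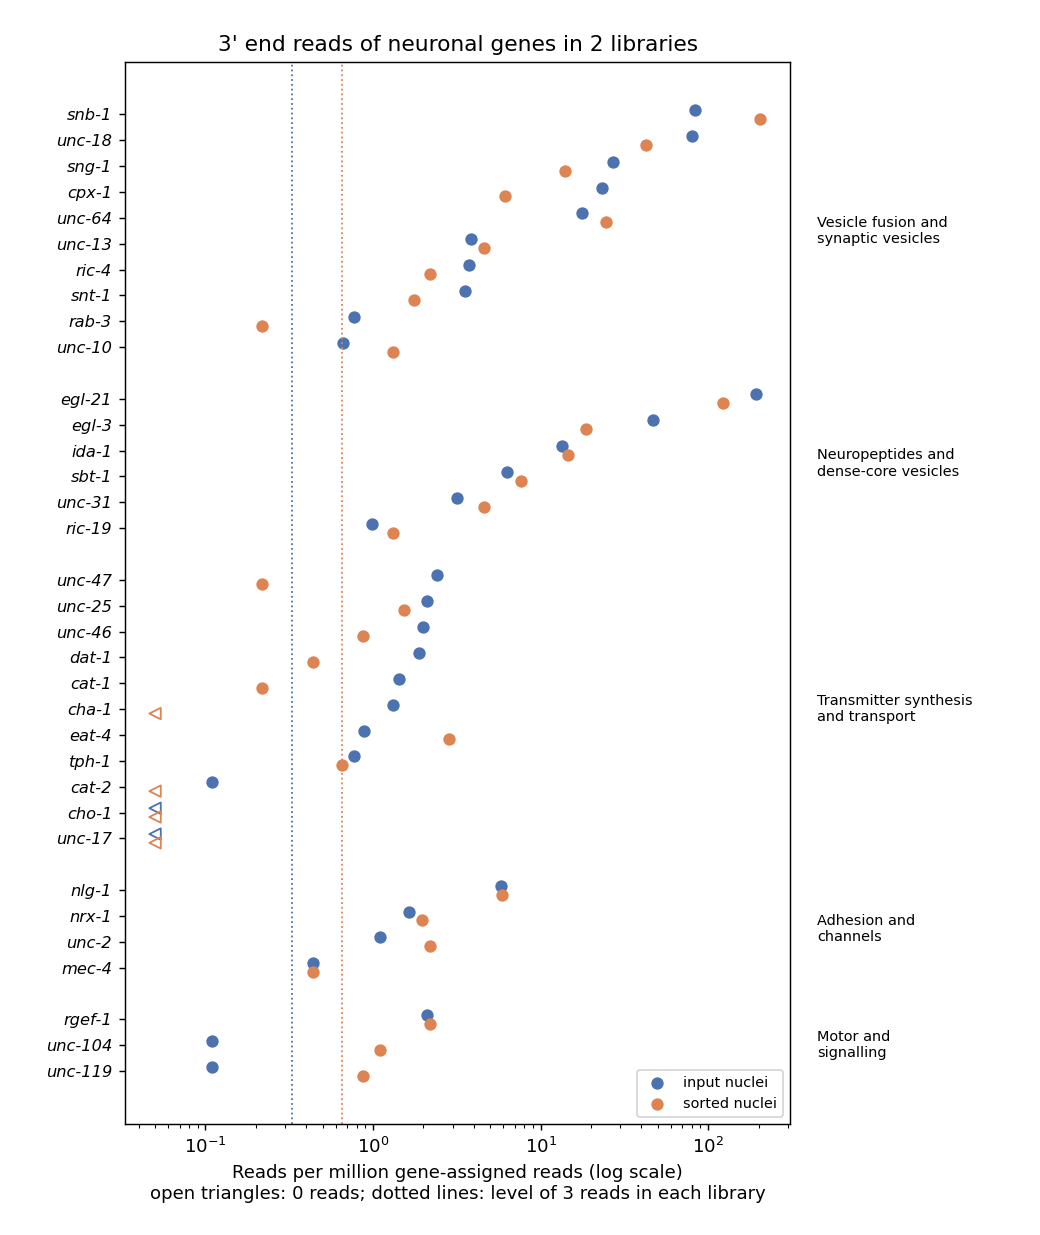
Level of each of the 34 members in RPM on a log axis, blue for input and orange for sorted nuclei, with 1 library each; open triangles mark 0 reads and dotted lines the level of 3 reads. The points run from 0 to 205 RPM, and 15 members lie between 1 and 10 RPM in each library.

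The plot of levels by role shows how thin the signal was. In input, 1 member exceeded 100 RPM and 7 lay between 10 and 100 RPM. Another 15 lay between 1 and 10 RPM, 9 had reads but stayed under 1 RPM, and 2 had no reads. The sorted library had 2, 5, 15, 8 and 4 members in the same classes. Most reads lay where transcripts are annotated to end. Of the members' reads, 82.8% in input and 87.7% in sorted nuclei fell within 24 nt of an annotated 3' end of the gene, beside 78.0% and 74.7% over all genes. Introns held 1.53% of the members' input reads and 1.99% of their sorted reads.

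The first role comprises 10 genes of synaptic vesicles and their fusion. Of these, 8 were measured, with snb-1 called higher and cpx-1 called lower. Their summed reads were 2220 in input and 1382 in sorted nuclei, a ratio of 1.24 (1.16 to 1.32). Without snb-1, again left out after its values were seen, the ratio of the other 9 genes was 0.609 (0.546 to 0.677). The side of 1 on which the group fell was thus set by that gene.

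Among the SNARE genes of this role, only snb-1 was called. For snb-1, which encodes synaptobrevin, the SNARE of the vesicle membrane, input gave 759 reads (83.5 RPM) and sorted nuclei 935 reads (205 RPM). The sorted level was 2.45 times the input level (2.22 to 2.70), and 82.3% of all measured genes had a lower ratio. For unc-64, the syntaxin of the plasma membrane, 160 reads (17.6 RPM) became 113 reads (24.7 RPM), a ratio of 1.40 (1.09 to 1.80). For ric-4, the SNAP-25 relative that completes the SNARE complex, the counts were 34 and 10 reads, or 3.74 and 2.19 RPM, with a ratio of 0.585 (0.258 to 1.21). The interval of unc-64 stayed above 1 without reaching 2, although under TMM scaling it reached 1 (1.27, 0.990 to 1.63), and that of ric-4 included 1.

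Among the regulators of fusion, cpx-1 was called lower. This complexin binds assembled SNAREs, restraining spontaneous release and supporting evoked release. It had 211 input reads (23.2 RPM) and 28 sorted reads (6.12 RPM), a ratio of 0.264 (0.171 to 0.393). Only 3.12% of measured genes had a lower ratio. The Munc18 relative unc-18, which holds and chaperones syntaxin, had 730 and 196 reads, or 80.3 and 42.9 RPM. Its ratio of 0.534 (0.454 to 0.626) lay below 1 without passing 2-fold. Input levels of snb-1 and unc-18 were thus close, at 83.5 and 80.3 RPM, while their sorted levels were 205 and 42.9 RPM. The priming factor unc-13, which opens syntaxin, had 35 and 21 reads, with a ratio of 1.19 (0.660 to 2.11).

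Synaptogyrin, a membrane protein of synaptic vesicles encoded by sng-1, had 246 input and 64 sorted reads, or 27.05 and 13.999 RPM. Its ratio was 0.518 (0.387 to 0.684), below 1 but short of the 2-fold call. The calcium sensor synaptotagmin, snt-1, had 32 and 8 reads, with a ratio of 0.497 (0.198 to 1.10). Both rab-3, the small GTPase of synaptic vesicles, with 7 and 1 reads, and its active-zone effector unc-10, with 6 and 6 reads, stayed under the read minimum. No ratio is read from those last 2 genes.

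**Figure D2:**
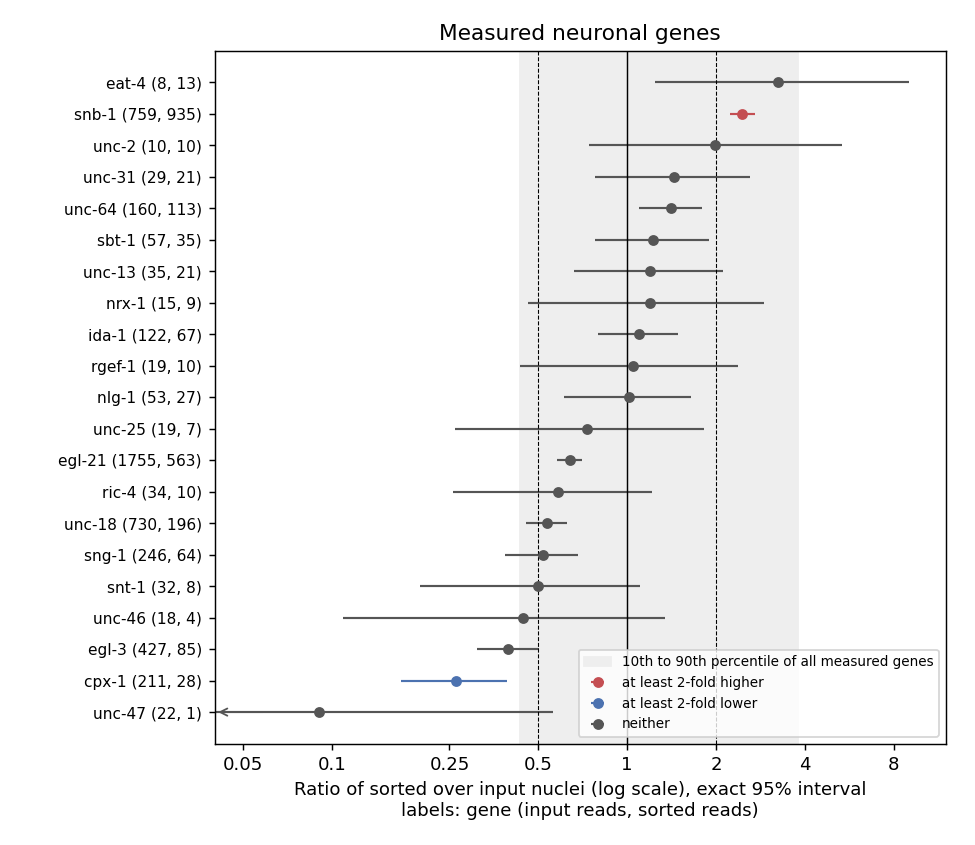
Ratio of sorted over input nuclei for the 21 measured members on a log axis, with exact 95% intervals of counting error; input and sorted reads stand beside each name, dashed lines mark 2-fold and the grey band spans the 10th to 90th percentile of all measured genes. Only snb-1 at 2.45 and cpx-1 at 0.264 have an interval wholly beyond 2-fold, and intervals are wide for genes of few reads, such as unc-47 at 22 and 1 reads.

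The second role comprises 6 genes of neuropeptide processing and dense-core vesicles, 5 of them measured and none called. Its summed reads were 2399 and 777, a ratio of 0.644 (0.593 to 0.699). The processing enzymes carried that sum. Carboxypeptidase E, encoded by egl-21, trims basic residues from cut neuropeptides and had the most input reads of all members, 1755 in input (193 RPM) and 563 in sorted nuclei (123 RPM). Its ratio was 0.638 (0.579 to 0.702). Proprotein convertase 2, encoded by egl-3, makes the first cut in the precursors and had 427 and 85 reads, or 46.95 and 18.6 RPM. At 0.396 (0.310 to 0.501), its upper bound missed 2-fold by little, and the gene was called lower under 5 of the 12 alternative settings of the processing.

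The other measured dense-core vesicle genes had ratios above 1 whose intervals included 1, and ida-1 moved to 0.989 under TMM scaling. For sbt-1, the 7B2 chaperone of that convertase, the counts were 57 and 35 reads and the ratio 1.22 (0.778 to 1.89). A membrane protein of dense-core vesicles, the IA-2 relative ida-1, had 122 and 67 reads, or 13.4 and 14.7 RPM, with a ratio of 1.09 (0.798 to 1.48). The release factor CAPS, unc-31, had 29 and 21 reads, with a ratio of 1.44 (0.781 to 2.61). The convertase and its chaperone thus had intervals that did not overlap, at 0.310 to 0.501 for egl-3 and 0.778 to 1.89 for sbt-1. Under the minimum was ric-19, an ICA69 relative that acts in dense-core vesicle maturation, with 9 and 6 reads.

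The third role comprises 11 genes that make or move single transmitters. Only 4 were measured and none was called, and the 11 genes together had 117 input and 31 sorted reads. Their summed ratio was 0.527 (0.343 to 0.789). Leaving out eat-4, chosen for this after its values were seen, gave 109 and 18 reads and a ratio of 0.329 (0.188 to 0.544).

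Most genes of GABA and the monoamines had few sorted reads. The vesicular GABA transporter unc-47 had 22 input reads (2.42 RPM) and 1 sorted read (0.219 RPM), a ratio of 0.0904 (0.00219 to 0.559). Its lysosome-associated membrane protein partner unc-46, which directs it to synaptic vesicles, had 18 and 4 reads, with a ratio of 0.442 (0.109 to 1.34). The GABA-making enzyme glutamate decarboxylase, unc-25, had 19 and 7 reads, with a ratio of 0.733 (0.260 to 1.82). Neither unc-46 nor unc-25 can be read firmly as a mature transcript. Introns held 12 of the 19 input and 5 of the 7 sorted reads of unc-25, and 7 of the 18 input and 3 of the 4 sorted reads of unc-46 lay where a neighbouring gene overlaps. By contrast all 22 input reads of unc-47 lay near its annotated end.

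Monoamine genes fell under the minimum of 20 reads. The dopamine transporter dat-1 had 17 and 2 reads, the vesicular monoamine transporter cat-1 had 13 and 1, and tryptophan hydroxylase tph-1, which starts serotonin synthesis, had 7 and 3. Tyrosine hydroxylase, cat-2, which starts dopamine synthesis, had 1 input read and 0 sorted reads. In each of these 4 genes the sorted count was lower, but the libraries also differ in depth, so that 6.69 of 20 reads would be sorted reads at a ratio of 1.

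Acetylcholine genes had the fewest reads of this role. Choline acetyltransferase, cha-1, had 12 input reads and 0 sorted reads, with an exact interval of the ratio from 0 to 0.716, and stayed under the read minimum. Its gene is nested with unc-17, the vesicular acetylcholine transporter, in the cholinergic locus of chromosome IV. No read was assigned to unc-17, although 2 of the input reads counted for cha-1 lay 4 nt past the annotated end of unc-17, inside the span of cha-1. The choline transporter cho-1 also had 0 reads in both libraries, which allows up to 0.330 RPM in input and 0.656 RPM in sorted nuclei.

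The one glutamate gene of the set had more sorted than input reads. The vesicular glutamate transporter eat-4 had 8 input reads (0.880 RPM) and 13 sorted reads (2.84 RPM), a ratio of 3.23 (1.24 to 9.00). It had the highest ratio of the measured members, yet its interval reached below 2 and it was not called. Within 24 nt of its annotated end lay 2 of the input and 10 of the sorted reads.

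Adhesion and channel genes made up the fourth role, with 3 of 4 measured and none called. Summed, they had 82 and 48 reads and a ratio of 1.16 (0.798 to 1.68). Neuroligin, the postsynaptic adhesion protein encoded by nlg-1, had 53 and 27 reads, or 5.83 and 5.91 RPM, with a ratio of 1.01 (0.613 to 1.64), which turned to 0.917 under TMM scaling. Its presynaptic partner neurexin, nrx-1, had 15 and 9 reads, with a ratio of 1.19 (0.461 to 2.91). The voltage-gated calcium channel unc-2 had 10 and 10 reads, with a ratio of 1.99 (0.743 to 5.33). Introns held 3 of its input and 8 of its sorted reads. The touch-receptor channel mec-4 had 4 and 2 reads.

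The fifth role holds 3 pan-neuronal genes with 21 and 19 reads in all. The Ras exchange factor rgef-1, often used to mark all neurons, had 19 and 10 reads, with a ratio of 1.05 (0.435 to 2.37), or 0.948 under TMM scaling. The synaptic vesicle kinesin unc-104 had 1 and 5 reads, 4 of the 5 in introns. The lipid-binding chaperone unc-119 had 1 and 4 reads. The last 2 genes stayed under the minimum.

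Beyond levels, each gene's reads were divided among 3' end sites, meaning clusters of positions within 24 nt. A gene qualified with at least 20 reads in each library, and a shift required a change in share of at least 20 percentage points with exact 95% intervals that did not overlap. Of the members, 12 had enough reads and 10 of them had 2 or more sites. A site was shifted in 3 genes, unc-64, cpx-1 and unc-13, against 16.1% of 4017 genes with 2 or more sites. Positions below are those of the files, in their own genome build, and distances are from the nearest annotated end, negative when upstream.

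The syntaxin gene unc-64 changed the balance between 2 ends past its stop codon. The upstream site, at position 13283622 on the plus strand of chromosome III and -145 nt from the annotated end, had 63 of 160 input and 14 of 113 sorted reads. In input that was a share of 39.4% (31.8 to 47.4), and among sorted nuclei it was 12.4% (6.94 to 19.9). At the downstream site, position 13283766 and -1 nt from the annotated end, input reads had a share of 51.9% (43.8 to 59.8) and sorted reads one of 81.4% (73.01 to 88.1). Scaled to depth, the upstream site had 0.442 times the input level (0.229 to 0.798) and the downstream site 2.20 times (1.62 to 3.003). The modest ratio of the whole gene, 1.40, was thus the sum of ends whose ratios lay on opposite sides of 1.

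In cpx-1 the shift came from reads beyond the gene model. At the annotated end, position 1594654 on the minus strand of chromosome I, lay 210 of 211 input reads (99.5%) and 21 of 28 sorted reads (75%, 55.1 to 89.3). The other 7 sorted reads, 25.0% (10.7 to 44.9), formed a site at position 1594439, 211 nt past the annotated end, where input had 0 reads (up to 1.73%). The annotated end alone had a ratio of 0.199 (0.121 to 0.312), lower than the 0.264 of the gene. Whether the 7 reads belong to a cpx-1 transcript was not tested.

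The unc-13 shift rested on few reads. Its main end at position 7454093 on the plus strand of chromosome I had 30 of 35 input reads (85.7%) and 13 of 21 sorted reads (61.9%). A site at position 7453801, past a stop codon, had 0 input and 6 sorted reads, the latter 28.6% (11.3 to 52.2) of the gene.

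**Figure D3:**
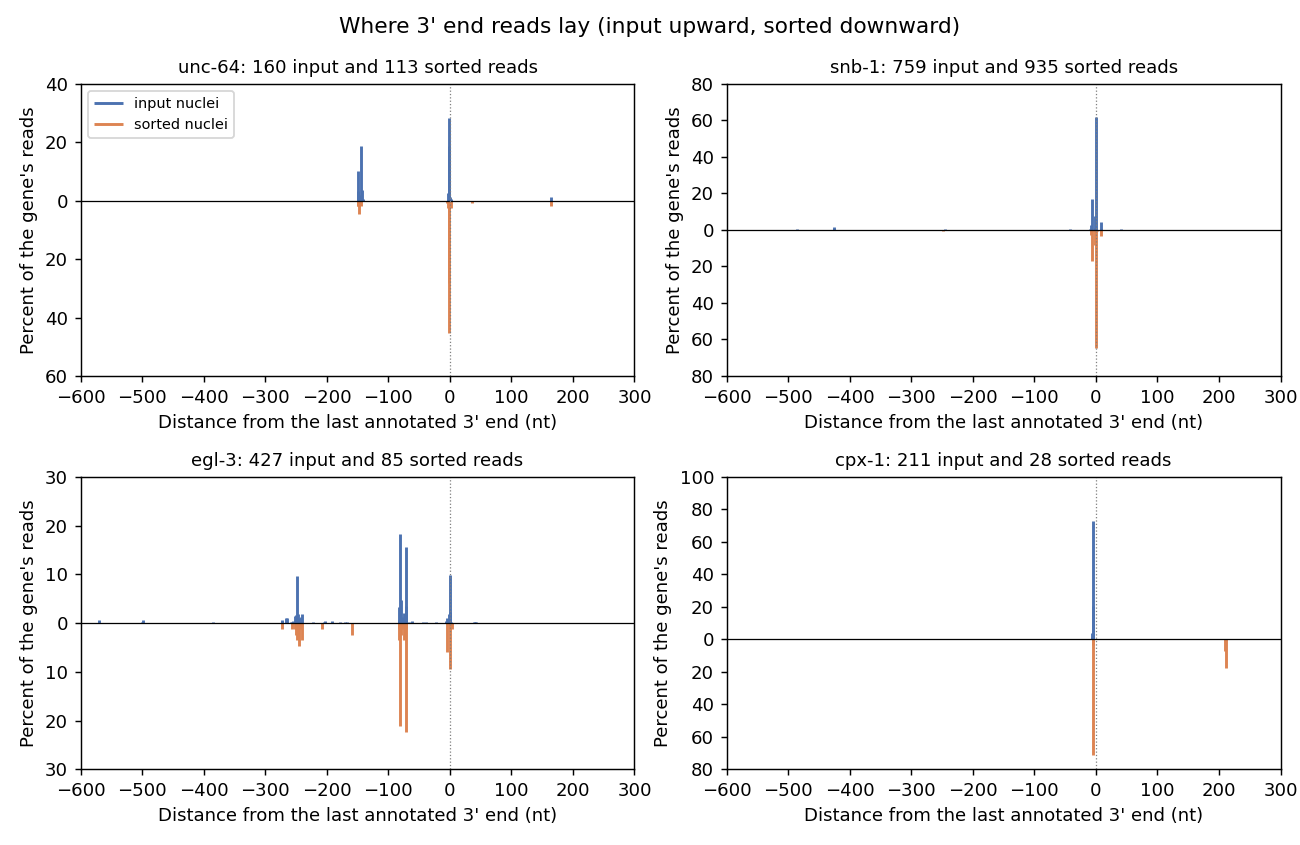
Share of the reads of 4 members at each position around the last annotated 3' end (dotted line), in nt, input nuclei upward and sorted nuclei downward, in percent of the gene's reads in that library. The upstream site of unc-64 sums over its positions to 39.4% of input and 12.4% of sorted reads. The cpx-1 gene has 7 sorted reads at 210 and 211 nt past the line. The main peak of snb-1 is the same in both libraries. The clustered sites of egl-3 have reads in both libraries, but single positions differ. At -249 nt lay 41 of 427 input and 3 of 85 sorted reads.

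Members that differed in level did not necessarily differ in their ends. The snb-1 reads formed a single site at position 6655545 on the minus strand of chromosome V, at the annotated end, with 95.3% of input and 99.3% of sorted reads. The higher level of snb-1 lay at this site, with a ratio of 2.55 (2.31 to 2.82). The egl-3 gene used 3 sites in both libraries. At +1 nt the share was 16.9% in input and 17.6% in sorted nuclei, at -81 nt it was 52.2% and 56.5%, and at -249 nt it was 25.3% and 20.0%. All 3 egl-3 sites had ratios under 1, from 0.313 to 0.428. Likewise egl-21 kept its main end, with 94.1% and 92.2%, beside a minor site at -144 nt with 5.41% and 7.10%.

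Further genes without a shift were uneven in how much their reads could show. The unc-18 reads formed 1 site with 93.0% and 89.8%. In ida-1 the annotated end had 87.7% and 95.5%, and in sbt-1 it had 89.5% and 94.3%. The sng-1 gene spread over 3 sites, its annotated end having 74.8% and 59.4% of reads with overlapping intervals. In nlg-1 an intronic site held 45.3% of input and 44.4% of sorted reads, beside 54.7% and 40.7% at an annotated end, so the reads counted for neuroligin came from both places in each library. The unc-31 reads fell into 7 sites, 5 of them in introns with at most 6 reads in either library, and its main end had 62.1% and 47.6%.

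Other genes of neurotransmission were placed beside the members. Over all measured genes, 13.5% were called higher and 4.1% lower. Counts of calls in the lists below are set beside these shares, and no trait of a list is read from them. Of 27 further presynaptic genes, 26 symbols were found and 16 genes measured, with 1 called higher and 2 called lower. The summed ratio of the 26 genes was 1.08 (1.015 to 1.15), or 0.977 (0.919 to 1.039) under TMM scaling. The higher gene was the active-zone scaffold liprin, syd-2, with 147 and 260 reads and a ratio of 3.52 (2.86 to 4.34). Its reads were mostly away from annotated ends, with 117 input and 201 sorted reads at 1 intronic position and 9 and 2 reads near an end. The lower genes were the presynaptic kinase sad-1, with 56 and 4 reads, and the kinesin adaptor unc-76, with 130 and 20 reads. The unc-11 gene, an AP180 clathrin adaptor that retrieves synaptobrevin from the plasma membrane, had a ratio of 1.13 (0.969 to 1.32).

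Of 14 measured genes that signal to release, 1 was called higher and none lower, beside 13.5% and 4.1% of all measured genes. The higher gene was the potassium channel slo-2 with 12 and 26 reads, a call that TMM scaling or a minimum of 50 reads removed. The Go alpha subunit goa-1, which restrains release, had 2053 and 916 reads and a ratio of 0.888. Among 15 measured transmitter receptors and breakdown enzymes, 3 were called higher and 1 lower, beside the same shares of all measured genes. The glutamate-gated chloride channel subunit glc-1 had 4.62 and 22.5 RPM and a ratio of 4.88 (3.38 to 7.16). The glutamate receptor subunit glr-2 had 12 and 25 reads, and its call was also lost under TMM scaling or a minimum of 50 reads. Acetylcholinesterase ace-2 had 22 and 114 reads, but 14 and 69 of these lay at 1 intronic position and 1 and 1 near an end. The muscarinic receptor gar-2 had 188 and 19 reads and a ratio of 0.201 (0.118 to 0.323).

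Of 18 neuronal ion channel genes, 6 were measured and none was called, beside 13.5% higher and 4.1% lower over all measured genes. The summed ratio of the 18 genes was 0.522 (0.471 to 0.578). That sum rested on the calcium channel subunit unc-36, with 1521 and 378 reads and a ratio of 0.494 (0.441 to 0.554). Among 6 measured neuronal transcription factors, 1 was called higher and none lower, beside the same shares. The higher gene was the touch-neuron factor mec-3 with 3 and 23 reads, too few for a minimum of 50 reads. Only 2 of its input and 4 of its sorted reads lay within 24 nt of an annotated end. None of 6 measured genes of ciliated neurons was called.

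Secretory genes that also work outside neurons stood beside the fusion members. Of 38 such genes, 29 were measured. Among these 2 were called higher and 1 lower, beside 13.5% and 4.1% of all measured genes. The summed ratio of the 38 genes was 0.899 (0.872 to 0.928). The Munc13-like gene aex-1, which acts in the intestine in the defecation motor program, had 222 and 778 reads and a ratio of 6.97 (5.998 to 8.13). The proprotein convertase kpc-1 had 86 and 245 reads and a ratio of 5.67 (4.42 to 7.33), beside 0.396 for the member convertase egl-3. The lower gene was the endoplasmic reticulum syntaxin syx-18, with 504 and 94 reads and a ratio of 0.371 (0.294 to 0.463). The widely used SNAP-25 relative snap-29 had 6192 and 2289 reads, a ratio of 0.735, beside 0.585 for ric-4.

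**Figure D4:**
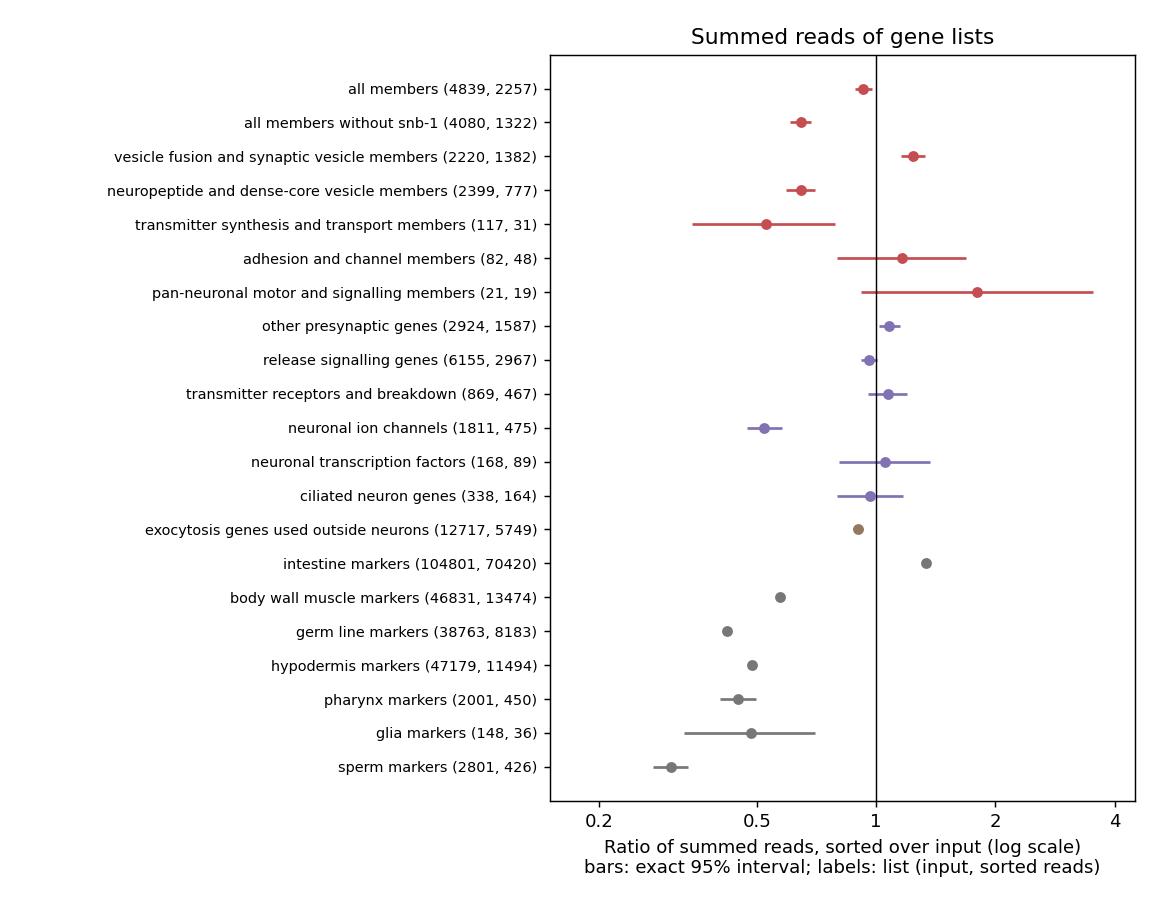
Ratio of summed reads, sorted over input nuclei, for the members and their roles (red), other neuronal lists (purple), secretory genes used outside neurons (brown) and tissue markers (grey), on a log axis with exact 95% intervals; summed input and sorted reads stand beside each list. All members lie at 0.928, and at 0.645 without snb-1, which was left out after its values were seen. Both values lie between the intestine markers at 1.34 and the sperm markers at 0.303. The intestine sum rests mostly on act-5, vit-6 and vit-2, with 48951, 24260 and 21849 of 104801 input reads. Their ratios were 1.57, 0.759 and 0.739, while the median log2 ratio of the measured intestine markers was 1.67.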

How the data were processed

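Per the labels, antisense RNA was made from cDNA primed with 24 T, joined to an adapter, copied back into cDNA and put through 12 PCR cycles. The authors deposited, per library, unscaled read counts per position and strand. TopHat is named, without a version, in the submitters' processing notes. Not given in the sources used here were the genome build and the handling of A-rich or multiply mapped reads.

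Gene models of WBcel235 (Ensembl 115) were used after adding, in each of 203 windows of 0.5 Mb, the commonest offset between positions with at least 10 reads and annotated protein-coding 3' ends. Offsets ran from -7 to 120 nt, and from 4611 to 4612 nt in 3 windows. A median of 37.2% of positions lay within 3 nt of the offset. Reads went to 1 gene on their strand, by span before a 300 nt extension, then by nearest annotated end. RPM used 9094297 input and 4571685 sorted gene reads. Log2 ratios had 0.5 reads added. Genes needed 20 reads over both libraries. Sites needed 5% of a gene's reads in either library.

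No sequence was read, so priming at A-rich stretches was not examined. All members are accounted for. Of each other list, up to 3 measured genes with the most reads and called genes where these were 6 or fewer could be named. Members and lists were chosen with earlier results of these data known. Alternatives used TMM of edgeR 4.0.16 and median of ratios of DESeq2 1.42.0 (R 4.3.3), other read minimums, extensions, windows and position filters. Computation used Python 3.11.15, numpy 2.4.6, pandas 2.3.3 and scipy 1.17.1, with the calling steps tested on simulated data.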

Additional observations from a re-analysis of the deposited data

How the results depend on the processing

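No paired analysis was possible because each group held 1 library, and for the same reason no replicate could be left out. The ratio of snb-1 ranged from 2.22 to 2.67 and that of cpx-1 from 0.197 to 0.264 over the settings other than counting each position once, and both kept their calls. Counting each position once left 7 members measured, with 0 called higher and 0 called lower and snb-1 at 1.05; over all genes this setting called 0.525% of 5719 higher and 0 lower, so it says little about the members. The number of members called lower was 2, egl-3 joining cpx-1, under TMM, median of ratios, all nuclear reads as the scale, coding sequence and introns left out, and overlapping genes left out. The minimum of 50 reads left 12 members measured and no minimum left 32. The summed ratio of all members was 0.840 under TMM, 0.857 under median of ratios, 0.827 with each position once and 0.645 without snb-1. It turned to 1.03 with only positions within 24 nt of an annotated end and to 1.09 without egl-21, so its side of 1 is not fixed. Without snb-1 the sum was 0.583 under TMM, 0.596 under median of ratios and 0.811 with each position once. TMM moved the median log2 ratio of all genes from 0.04 to -0.10 and the calls from 13.5% higher and 4.10% lower to 12.0% and 5.80%. Under TMM 2 secretory genes were called lower in place of 1, and 1 ciliated neuron gene in place of 0. The shifted sites were in the same 3 genes under 3 other site settings. With 20 reads, a gene could be called lower only at 0 sorted reads and higher at 15 or more, which limits what the transmitter genes can show at this depth. The cause of these changes was not tested.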
